A study of Mus musculus with 7 samples.

Results

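Gm10252 and Ftl1 are a pair of genes that lie on opposite strands of mouse chromosome 7, and they were examined as 2 of the 48440 gene rows in a table of raw RNA-seq counts from isolated islets. Ftl1 encodes the light chain of ferritin. Gm10252 is a predicted gene that covers the start of Ftl1, and it was selected on its summed count, which put it among the 3 rows with most counts. Ftl1 was taken as its partner. Its rank and size are therefore given as a description, and only its comparison between treatments was tested. The islets came from female, prediabetic NOD.hALOX12 mice. In this line on the nonobese diabetic background, the mouse Alox15 gene was replaced in every tissue by human ALOX12 under the mouse regulatory region. All libraries share that replacement. From 6 to 10 weeks of age (4 weeks) the mice received vehicle (4 libraries) or a daily oral dose of 30 mg/kg VLX-1005, which inhibits the human 12-lipoxygenase (3 libraries). The labels do not tie libraries to separate animals, so a p-value here speaks of the spread among libraries, some of which may be technical.

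Ferritin is a hollow protein shell in which cells store iron in a form that does not react. It is built from heavy chains, which oxidize ferrous iron, and light chains, which help the mineral core to form. Free ferrous iron turns lipid hydroperoxides into radicals that spread damage through membranes, a process that ends in ferroptosis when it is not contained, and lipoxygenases, which are themselves iron enzymes, make such hydroperoxides from polyunsaturated fatty acids. Pancreatic β cells are known for low levels of several enzymes that remove peroxides. Ferritin synthesis is set largely at translation: when iron is scarce, iron regulatory proteins bind a hairpin in the 5′ untranslated region of both chains, the iron-responsive element, and hold the message back. The level of ferritin RNA therefore need not follow that of the protein.

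The 2 genes share the first exon of Ftl1. On mm10, Ftl1 (ENSMUSG00000050708.16) runs from 45457944 to 45459884 on the minus strand of chromosome 7 in 4 exons, which form a transcript of 968 bases. Gm10252 (ENSMUSG00000110350.1) is a single exon of 832 bp on the plus strand, from 45459469 to 45460300, and GENCODE gives it the biotype TEC, used for predicted genes that still await experimental evidence. Exon 1 of Ftl1 (45459530 to 45459884, 355 bp) lies wholly within Gm10252 and makes up 42.7% of it. From the Ftl1 start, Gm10252 goes on for 416 bp into the Ftl1 promoter, and at its other end it reaches 61 bp into intron 1. The other 985 bp of the merged Ftl1 exons have no annotated exon opposite them. The next gene beyond Gm10252, Bax, is on the minus strand and ends 1397 bp away.

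**Figure D1:**
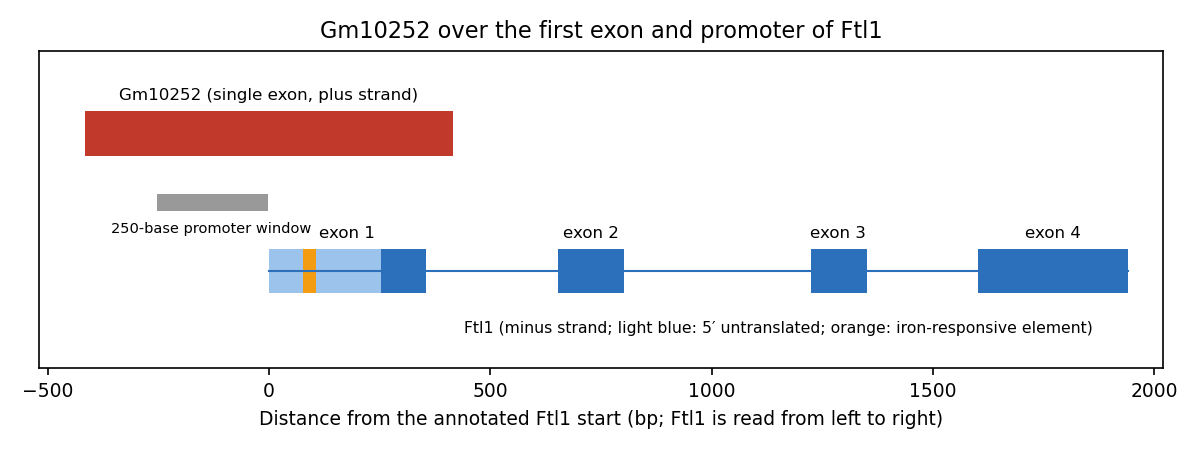
Map of the locus to scale, with distance from the annotated Ftl1 start in bp on the horizontal axis and Ftl1 read from left to right. Gm10252 (red, 832 bp) covers the promoter window (grey) and all 355 bp of Ftl1 exon 1, whose 5′ untranslated part (light blue) holds the iron-responsive element (orange), and none of exons 2 to 4.

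The iron-responsive element is the best known regulatory sequence in the stretch that both rows cover. It was located in the 5′ untranslated part of exon 1 (253 bp) by its hairpin pattern, an unpaired C, 5 paired bases, a loop of CAGTGN and 5 paired bases, with G-T pairs allowed. The pattern occurred in the first 253 bases of 21 of 21798 protein-coding genes (0.0963%). The elements of the light and the heavy chain are shown on the strand of the ferritin message, with the loop in capitals.
Ftl1 iron-responsive element, chr7:45459778-45459807, minus strand: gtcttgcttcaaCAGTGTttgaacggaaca
Fth1 iron-responsive element, chr19:9982732-9982761, plus strand: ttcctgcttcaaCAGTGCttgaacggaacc
They were identical at 26 of 30 bases. Counted from the 5′ end, the differences from Ftl1 to Fth1 were G1T, T4C, T18C and A30C.

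The coding part of exon 1 (102 bases) is the only stretch of ferritin light chain coding sequence under Gm10252, and it is shown with the start codon in capitals.
Ftl1 coding part of exon 1, chr7:45459530-45459631, minus strand: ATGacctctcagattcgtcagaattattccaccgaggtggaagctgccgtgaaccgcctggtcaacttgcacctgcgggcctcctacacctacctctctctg
The promoter is shown because Gm10252 covers it from end to end. It is the stretch before the RefSeq start of Ftl1 (GRCm38.p6), with the motif ATTGG, the CCAAT box read on the other strand, in capitals.
Ftl1 promoter, chr7:45459887-45460136, minus strand: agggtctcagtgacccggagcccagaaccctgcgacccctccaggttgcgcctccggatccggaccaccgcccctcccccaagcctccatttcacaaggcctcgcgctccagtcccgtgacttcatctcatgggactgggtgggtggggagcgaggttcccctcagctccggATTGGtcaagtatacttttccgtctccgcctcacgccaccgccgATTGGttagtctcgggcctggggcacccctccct
The window held 2 matches to ATTGG. Of 32851 windows of the same length, 33.8% held at least 1 match on either strand and 10.1% held at least 2. The core of the antioxidant response element (TGACNNNGC, either strand), the motif of NRF2, a factor known to raise ferritin transcription, had 0 matches in this window against 10.2% of all windows with a match, and TATAAA had 0 against 12.4%. A match is a run of letters and not a measured binding site.

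The libraries held 1024586 to 1430785 counts, and 9862 to 12310 genes had at least 1 count. A count of 0 allows up to 3 counts, or 2.10 to 2.93 CPM (counts scaled to the library total), a limit that covers counting error only because the reads carried no molecular identifiers. No 2 libraries were alike within sampling noise (chi-square per degree of freedom 4.28 to 23). Ribosomal RNA took 1.69% to 2.11% of counts with vehicle and 2.15% to 3.14% with VLX-1005. The strand setting of the counting is not given in the sources used here, so reads of Gm10252 and reads of Ftl1 exon 1 cannot be told apart. The Ftl1 row held 57 counts in all, although 985 bp of its exons have no exon opposite. For any gene, a low count on its own row therefore need not mean little RNA of that gene. The cause of the low own rows was not tested.

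Nearly all counts of the locus lay on the Gm10252 row, in every library and in both groups. Gm10252 had 37996, 40093, 38893 and 42452 counts in vehicle replicates 1 to 4 and 39021, 31255 and 38225 in VLX-1005 replicates 1 to 3. For Ftl1, the vehicle libraries held 11, 8, 4 and 11 counts and the VLX-1005 libraries 9, 6 and 8. Every Gm10252 count was at least 31255, and every Ftl1 count was above the limit for 0 but by 8 counts or fewer. Ftl1 made up 57 of the 267992 counts of the pair, or 0.0213% (exact 95% binomial interval 0.0161% to 0.0276%), which is 1 Ftl1 count for 4701 Gm10252 counts. The share was 0.0213% (0.0148% to 0.0298%) with vehicle and 0.0212% (0.0134% to 0.0318%) with VLX-1005. These intervals pool the counts of several libraries, so they cover counting error only and leave out the spread between libraries.

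A difference in that split between the groups was not detectable with so few Ftl1 counts. Ftl1 counts per 10000 Gm10252 counts were 2.895, 2.00, 1.03 and 2.59 with vehicle and 2.31, 1.92 and 2.09 with VLX-1005. The VLX-1005 values lay inside the vehicle range, which was set by the 4 counts of vehicle replicate 3 at its low end. The means were 2.13 ± 0.822 (SD, n = 4) and 2.11 ± 0.194 (n = 3), and a two-sided exact permutation test over the 35 splits of 7 libraries gave p = 1.0. The sign of that difference rests on single libraries, since it became 0.235 without vehicle replicate 1, 0.133 without vehicle replicate 4 and 0.0722 without VLX-1005 replicate 2, against -0.0212 over all libraries.

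Such a split was common in this table. A total of 702 pairs of a protein-coding gene and an overlapping opposite row of another biotype held at least 1000 counts together, and the median share on the row that is not protein-coding was 99.1%. Gm10252 took 99.979% of its pair, and 33 pairs had a higher share. In 564 pairs (80.3%) the share was over 90%, and the 10th percentile was 41.0%.

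The rest of the ferritin family left little in the counts. Of 17 ferritin genes and pseudogenes named as such in the annotation, 13 had 0 counts in all libraries. Rows at 0 were common over the whole table, where 18578 of 48440 rows had any count. Fth1, the heavy chain that oxidizes iron on entry into the shell (chromosome 19, 9980598 to 9985098, with no exon opposite), was counted 6, 2, 5 and 0 times in the vehicle libraries and 6, 15 and 6 times in the VLX-1005 libraries. The 2 groups overlapped, and 1 vehicle library had no Fth1 count. Fth1 did not pass the filter on low counts. With that filter left out, edgeR gave it a log2 fold change of 1.39 ± 0.71 (SE) and an adjusted p of 0.619. The light chain pseudogenes Ftl1-ps1 and Ftl2-ps had 4 and 2 counts in all, and Ftmt, the mitochondrial ferritin, had 0.

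Other rows that match the pair in sequence held hardly any counts either. Among 22 genes with at least 90% identity to Ftl1 or Gm10252 over at least 100 bases, 19 were in the table. Of these 15 were at 0, and together they held 10 counts. Most of those at 0 are short microRNA entries, including Gm22133, which lies within Ftl1 exon 4. Counted rows that match Gm10252 do so on the opposite strand. Gm47428, which matches Gm10252 on the same strand (314 bases, 99.4% identity), was not in the table. Where reads that match several copies went was not tested, so the level of either row may be short of such reads. Among the neighbours on chromosome 7, Bax, which promotes cell death at mitochondria, had 5 counts and Gys1, the glycogen synthase of muscle, had 49. Ruvbl2, a helicase subunit of chromatin remodelers, had 1261 counts, with a log2 fold change of 0.42 ± 0.23 (adjusted p = 0.356 by edgeR). Exons of Ruvbl2 and Gys1 overlap on opposite strands over 310 bp, so their reads cannot be told apart there.

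Gm10252 was one of the largest single rows of these libraries. It held 3.09% of all 8674093 counts, behind Gm20721 (4.75%), which lies opposite Gnas, and Pcsk2os2 (3.14%), which lies opposite the prohormone convertase gene Pcsk2. Its rank was 2 in vehicle replicate 1 and VLX-1005 replicate 3 and 3 in the other 5 libraries. The 3 rows together held 10.98% of all counts and the first 10 rows 22.4%. The row just below the cut, the ribosomal RNA row CT010467.1, had 192989 counts against 267935 for Gm10252. Ftl1 ranked 4363.

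Length matters to that order. Per kb of exon, Gm10252 stood at 37309 TMM-scaled CPM (CPM corrected with the trimmed mean of M values) and was number 2 of all rows, behind the 215 bp row Gm28902, opposite the granule protein gene Resp18, at 52722. Per kb, Gm20721 stood at 31899 and Pcsk2os2 at 9015. Ftl1 ranged from 2.72 to 6.84 CPM per kb in the vehicle libraries and from 4.28 to 4.63 in the VLX-1005 libraries.

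The Gm10252 level varied little between libraries. The highest library stood 1.33 times above the lowest in TMM-scaled CPM, as for Gm20721 (1.33), while the ratio was 1.27 for Gm26825 (opposite Gm15459), 2.23 for Pcsk2os2 and 4.24 for Casp9. Its coefficient of variation was 6.19% among vehicle and 6.45% among VLX-1005 libraries. Pcsk2os2 varied by 10.8% and 30.0%.

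**Figure D2:**
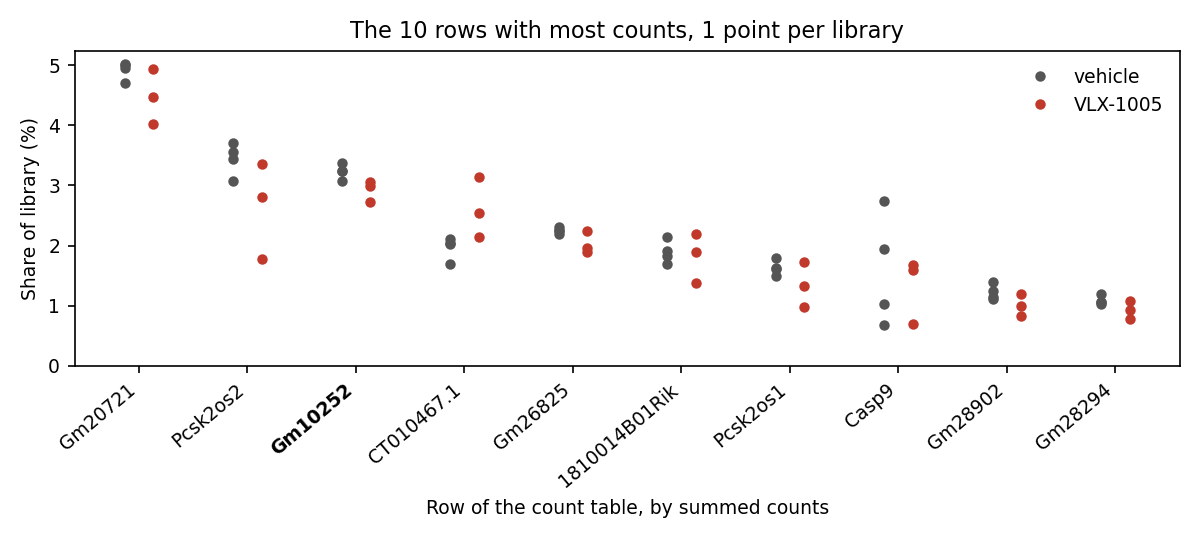
Share of each library's counts (%, vertical axis) taken by the 10 rows with most counts, 1 point per library, vehicle in grey and VLX-1005 in red. Gm10252 lies between 2.73% and 3.38% in all 7 libraries, a narrower band than that of Pcsk2os2, CT010467.1 or Casp9.

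Whether the drug moved the ferritin light chain locus was asked on 3 scales. The Gm10252 level was lower with VLX-1005 on each without passing a test after adjustment. As a share of the library, Gm10252 took 3.24%, 3.07%, 3.38% and 3.24% with vehicle and 2.73%, 3.05% and 2.99% with VLX-1005. All VLX-1005 libraries lay below all vehicle libraries, but the nearest 2, vehicle replicate 2 (95% Wilson interval 3.04% to 3.10%) and VLX-1005 replicate 2 (3.02% to 3.08%), were not distinct at this depth. Such a separation, with every VLX-1005 library below every vehicle library, was seen in 6.14% of all tested rows. The means were 3.23% ± 0.129 (SD, n = 4) and 2.92% ± 0.172 (n = 3), a difference of -0.309 percentage points or -9.57%. The two-sided exact permutation test gave p = 0.0571, and 0.114 after adjustment over the 4 such tests made on the pair, where the smallest p the design allows is 0.0286.

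The share depends on what else fills the library. With the other 9 of the 10 largest rows taken out of the total, the difference was -0.471 percentage points and the exact permutation p was 0.0286, the smallest possible. With ribosomal RNA rows taken out instead, it was -0.296 points (exact permutation p = 0.0857), and VLX-1005 replicate 2 (3.15%) then stood above vehicle replicate 2 (3.12%). Both of these p-values stand outside the 4 tests adjusted together and were not adjusted.

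TMM scaling gave Gm10252 31656, 30845, 35457 and 33210 CPM with vehicle and 26573, 29878 and 29670 with VLX-1005. The groups again did not overlap, with vehicle replicate 3 highest and VLX-1005 replicate 1 lowest, a separation in this direction that 8.16% of all tested rows showed. The means were 32792 ± 2029 (SD, n = 4) and 28707 ± 1851 (n = 3), a difference of -12.5% (exact permutation p = 0.0571, adjusted p = 0.114). In the edgeR fit over all genes, the log2 fold change was -0.19 ± 0.10 (SE), or a fold of 0.875, with a 95% interval of -0.40 to 0.02 on the log2 scale (0.757 to 1.01 as a fold). The edgeR adjusted p was 0.323. Over the 4218 rows tested, 100 were called at an adjusted p of 0.05 (2.37%), and 1 of these (0.0237%) was lower with VLX-1005. That number of calls ran from 14 without vehicle replicate 1 to 203 without VLX-1005 replicate 3 and was below 100 without any other single library except VLX-1005 replicate 1. Of the tested rows, 21.7% had a smaller p than Gm10252.

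**Figure D3:**
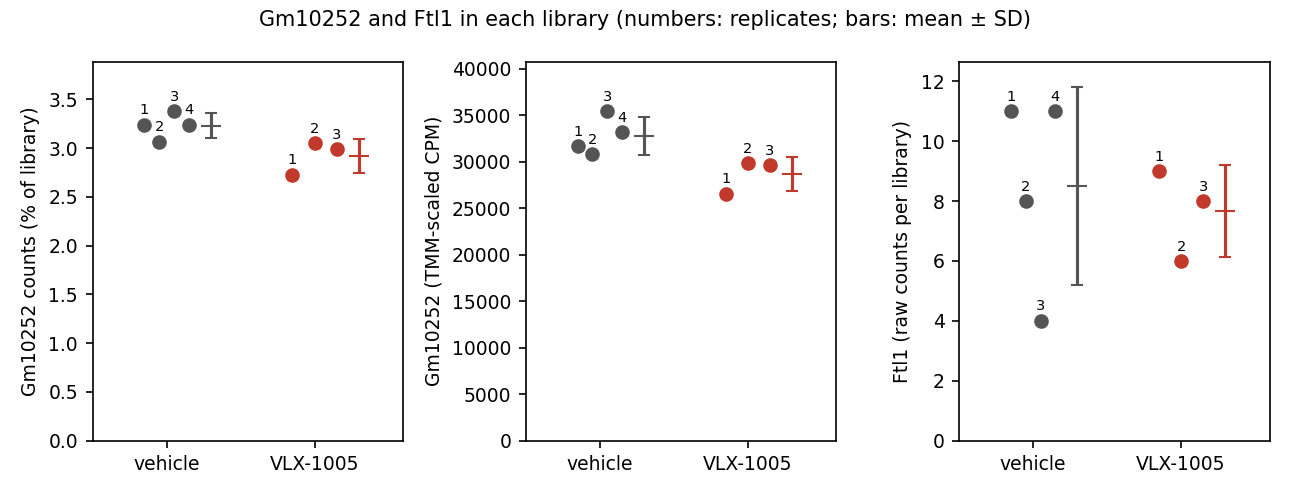
Gm10252 as a share of counts (%, left), as TMM-scaled CPM (middle), and Ftl1 in raw counts (right), with 1 numbered point per replicate and the mean ± SD beside each group. The 3 VLX-1005 points of Gm10252 sit below the 4 vehicle points in both scalings, while the Ftl1 points of the groups overlap between 4 and 11 counts.

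Ftl1 itself was too sparse for a comparison of use. Its TMM-scaled levels were 9.16, 6.15, 3.65 and 8.61 CPM with vehicle and 6.13, 5.74 and 6.21 with VLX-1005. The VLX-1005 libraries all lay within the vehicle range. The means were 6.89 ± 2.53 (SD, n = 4) and 6.02 ± 0.254 (n = 3), with an exact permutation p of 0.543 (adjusted 0.724). Ftl1 did not pass the filter on low counts. Fitted by edgeR without that filter, among 18578 rows, its log2 fold change was -0.22 ± 0.60 with an adjusted p of 0.920. A change of the size seen for Gm10252 was thus not detectable with so few counts.

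The direction for Gm10252 held under every other setting tried. Over 16 of these, which changed the tool, the scaling, the filter, a covariate or the libraries used, its log2 fold change ran from -0.25 to -0.14 and the adjusted p from 0.228 to 0.815. The unadjusted p was below 0.05 in 3 of the 16.

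**Figure D4:**
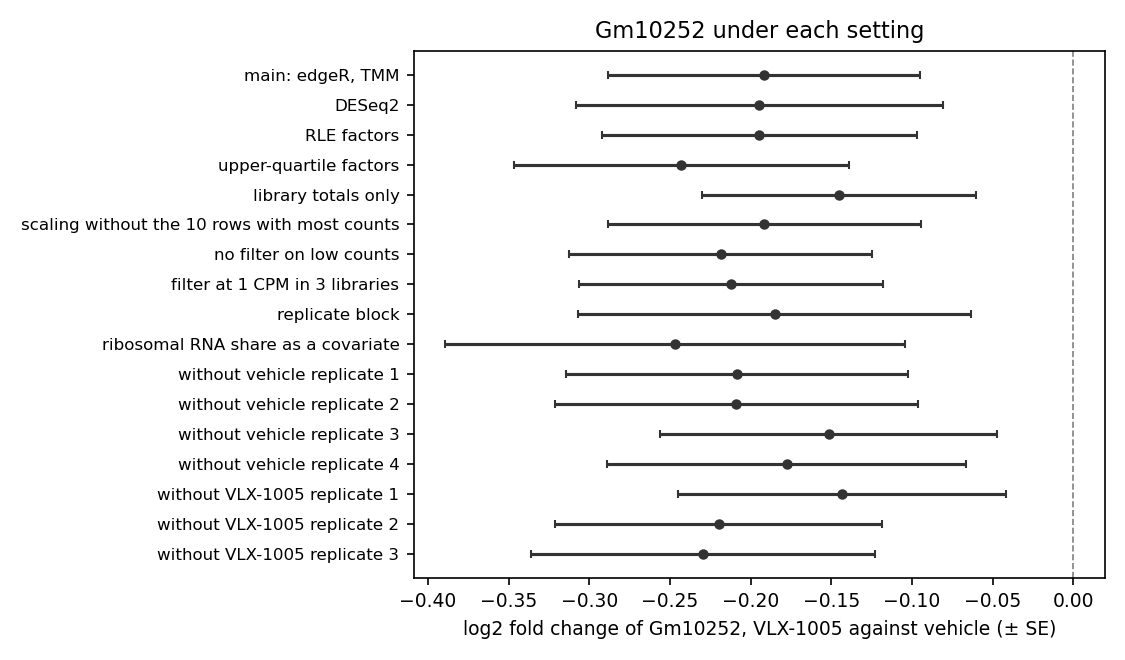
Log2 fold change of Gm10252, VLX-1005 against vehicle, with its SE (horizontal axis) under each setting (vertical axis), with 0 as a dashed line. All 17 points lie to the left of 0, between -0.25 and -0.14, and the lowest adjusted p among the 16 alternatives was 0.228.

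None of the 4 other rows among the first 5 by counts was called by edgeR with the low-count filter. The log2 fold change was -0.19 ± 0.10 (adjusted p = 0.362) for Gm20721, -0.43 ± 0.19 (adjusted p = 0.259) for Pcsk2os2, -0.19 ± 0.10 (adjusted p = 0.329) for Gm26825 and 0.36 ± 0.13 (adjusted p = 0.193) for CT010467.1. The differences of Gm20721 and Gm26825 were close in size to that of Gm10252, that of Pcsk2os2 was larger, and that of CT010467.1 was larger and in the other direction. Without the low-count filter, CT010467.1 was called (adjusted p = 0.0491 by edgeR). Of the 5, only Gm10252 had groups that did not overlap in TMM-scaled CPM, as did 8.16% of all tested rows in the same direction. The ribosomal RNA share was higher in every VLX-1005 library than in every vehicle library. With that share as a covariate, edgeR gave Gm10252 a log2 fold change of -0.25 ± 0.14 and an adjusted p of 0.815. In that fit the value was -0.092 for Gm20721, -0.086 for Pcsk2os2 and -0.062 for Gm26825. CT010467.1 alone took 1.69% to 3.14% of counts, nearly all of the ribosomal RNA share. Its value in that fit (-0.028) was therefore set near 0 in advance. Without VLX-1005 replicate 2, the log2 fold change was -0.20 for Pcsk2os2, -0.11 for Gm20721 and 0.21 for CT010467.1.

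The other genes of iron handling were counted through their own rows and through the rows opposite them, 40 rows for 30 genes with the ferritin light chain pair left out. Of these rows 23 had fewer than 10 counts and 9 had 0, and 13 were tested. In the tested rows the log2 fold change was above 0 in 5 and below 0 in 8, with a median of -0.15 against -0.01 over all tested rows. By edgeR 0 were called, against 2.37% of all tested rows, and 4 of 13 had an unadjusted p below 0.05, against 18.0%. DESeq2 called 0, against 199 of 4218 tested rows. The own rows of the main regulators of ferritin were nearly empty: Ireb2 and Aco1, the iron regulatory proteins 2 and 1, had 1 and 2 counts, Tfrc, the transferrin receptor for iron uptake, had 4, and Slc40a1, the iron exporter ferroportin, had 23.

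Fbxl5, the iron sensor that marks iron regulatory proteins for breakdown, had the smallest p of the list. Its level was 4.99 ± 2.92 CPM (SD, n = 4) with vehicle and 14.8 ± 4.06 (n = 3) with VLX-1005, on 81 counts in all (log2 fold change 1.52 ± 0.51, adjusted p = 0.161 by edgeR). With the ribosomal RNA share as a covariate, the Fbxl5 value was 1.18 ± 0.76 (adjusted p = 0.836 by edgeR). Exons of Fbxl5 and Bst1 (0 counts) overlap on opposite strands over 98 bp, so their reads cannot be told apart there. A230020J21Rik, opposite the haem exporter gene Flvcr1, had 55.3 ± 8.79 and 109 ± 58.8 CPM (0.96 ± 0.32, adjusted p = 0.162 by edgeR). Cdip1, opposite the haem oxygenase gene Hmox2, had 748 ± 66.3 and 594 ± 57.0 CPM (-0.33 ± 0.12, adjusted p = 0.174 by edgeR). For Gm5475, opposite Slc11a2, which encodes the ferrous iron transporter DMT1, the levels were 147 ± 10.7 and 110 ± 23.3 CPM (-0.42 ± 0.17, adjusted p = 0.229 by edgeR). The A230020J21Rik value was 0.48 without VLX-1005 replicate 2 and -0.056 with the ribosomal RNA share as a covariate, and that of Gm5475 was -0.17 with the covariate. All VLX-1005 libraries lay below all vehicle libraries in 3 of the 13 tested rows (Cdip1, Gm5475 and Pcbp2, an iron chaperone), against 8.16% of all tested rows, and above them in 1 (Fbxl5), against 9.48%. The Pcbp2 row (1149 counts) overlaps the opposite gene Map3k12 (19694 counts) over 1573 bp, so their reads cannot be told apart there. Ncoa4, the receptor that delivers ferritin to autophagy to release its iron, had 146 counts and a log2 fold change of -0.58 ± 0.34 (adjusted p = 0.388 by edgeR).

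Genes of lipid peroxidation and ferroptosis showed no called row. Their 35 genes gave 45 rows, of which 12 were tested, 4 with a log2 fold change above 0 and 8 below, at a median of -0.09. By edgeR 0 were called, against 2.37% of all tested rows, and 0 had an unadjusted p below 0.05, against 18.0%. DESeq2 called 0, against 199 of 4218 tested rows. With so small a share called over the table, 0 calls among 12 rows says little about the list. Gm17494, opposite the glutathione synthesis gene Gclm, had 55.1 ± 4.41 CPM with vehicle and 36.9 ± 13.9 with VLX-1005 (-0.56 ± 0.27, adjusted p = 0.293 by edgeR). The Gm17494 value was -0.29 without VLX-1005 replicate 2 and -0.11 with the ribosomal RNA share as a covariate. Lpcat3, which puts polyunsaturated fatty acids into phospholipids, had 31.5 ± 3.78 and 25.6 ± 2.74 CPM (-0.30 ± 0.25, adjusted p = 0.554 by edgeR), and its log2 fold change with that covariate was -0.55. The row opposite Lpcat3, Emg1, had a log2 fold change of -0.11 ± 0.13 (adjusted p = 0.665), and Acss2, opposite the glutathione synthetase gene Gss, one of -0.15 ± 0.15 (adjusted p = 0.634). Over the other settings, these ran from -0.20 to -0.067 for Emg1 and from -0.25 to -0.036 for Acss2, with the values nearest 0 without VLX-1005 replicate 2 for Emg1 and without VLX-1005 replicate 1 for Acss2.

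The central genes of ferroptosis could not be compared, because their own rows held few counts. Gpx4, the peroxidase that reduces lipid hydroperoxides in membranes, had 7 counts in all libraries together. Acsl4, which activates polyunsaturated fatty acids, had 1, and Slc7a11, the cystine antiporter, had 31. Alox15, the gene replaced in these mice, had 1 count, and mouse Alox12 had 14. Acsl4, which was not replaced, was as low as Alox15, so the Alox15 count does not show the replacement.

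**Figure D5:**
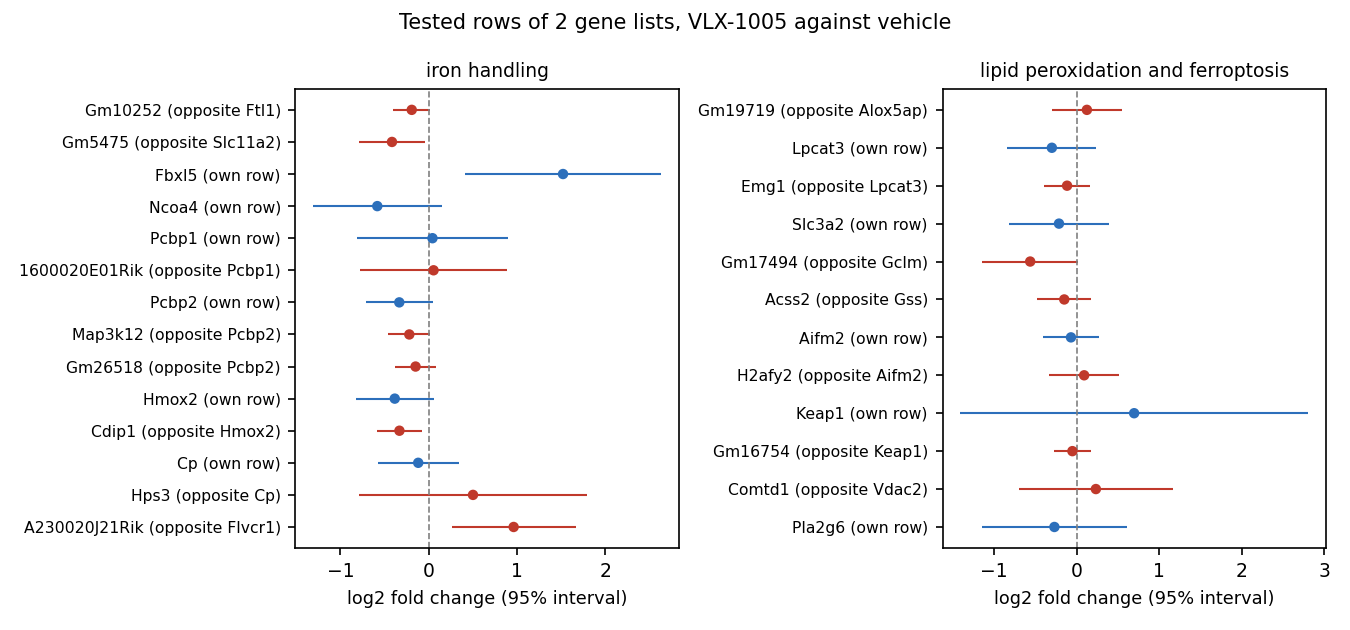
Log2 fold change (horizontal axis) with its 95% interval for the tested rows of the iron handling list with Gm10252 (left) and of the lipid peroxidation and ferroptosis list (right), own rows in blue and rows opposite a list gene in red. The Gm10252 interval, -0.40 to 0.02, is among the narrowest, and no row in either panel passed the edgeR test after adjustment.

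Ferritin is also plentiful in macrophages and red cell precursors, and the markers of such cells were counted beside the pair. Summed over 10 macrophage genes, the level was 241 to 301 CPM with vehicle and 282 to 319 with VLX-1005, nearly all of it from Csf1r. The Csf1r row (2370 counts) overlaps the opposite gene Hmgxb3 (4 counts), so reads of Csf1r and of Hmgxb3 cannot be told apart there. The other 9 genes held 44 counts in all, and Adgre1 and Mrc1 were at 0. The 7 erythroid genes summed to 6.12 to 13.04 CPM with vehicle and 5.48 to 10.7 with VLX-1005, with 5 of 7 at 0. The 10 acinar genes summed to 34.3 to 94.1 and 32.8 to 112 CPM. Own rows of 14 islet endocrine genes summed to 1203 to 1376 CPM with vehicle and 998 to 1803 with VLX-1005, and the 2 rows opposite them, Pcsk2os1 and Pcsk2os2, to 45660 to 54981 and 27641 to 50870. The ranges of the 2 groups overlapped for each of these sums. Both of those opposite rows belong to Pcsk2, and the other endocrine genes had no row opposite them. Even in islets, the own row of Pcsk2 (280 counts) lay far below Pcsk2os1 (132463) and Pcsk2os2 (272276). A low sum of macrophage or erythroid rows therefore does not show that such cells were few. The part of these cells in the Gm10252 level was not tested, and in bulk islets fewer cells of a type and less RNA per cell cannot be told apart.

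The rows whose levels followed Gm10252 most closely over the 7 libraries were Xpa (Pearson r = 0.98), Ino80b (0.96), Chadl (0.96), 2210411M09Rik (0.96) and Gm29587 (0.95), by log2 TMM-scaled CPM. Xpa is a DNA repair factor and Ino80b a chromatin remodeling subunit. Each of the 5 rows overlaps a gene on the other strand, in that order Ncbp1, Gm44287, L3mbtl2, Tmem63a and Syt16. Reads of the 2 genes of such a pair cannot be told apart there. The levels of the 5 rows were far lower than that of Gm10252, from 107 counts in all for Ino80b to 2532 for 2210411M09Rik. Of 4217 rows compared, 25 had r above 0.9, and the median was 0.01. All 7 points share libraries and scaling, so these values are a description. Of the 5 rows, 3 were again among the first 5 with scaling by library total, and 0 by Spearman's rank correlation.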

How the data were processed

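Islet RNA of 4 vehicle and 3 VLX-1005 libraries was used, grouped by the labels. Per the study's methods, handpicked islets recovered overnight. Per the labels, the libraries were TruSeq mRNA libraries that keep strand. The values the authors deposited are raw read counts, unscaled, for 48440 Ensembl genes. Trimmomatic, FastQC, HTSeq, DESeq2 and mm10 appear in the submitters' processing notes, and HISAT2 in the methods. Versions, annotation release and the strand setting were not given in the sources used here.

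IDs were matched to GENCODE M21 on the same build, which gave 48058 rows a position and left 382 without. Genes with exons overlapping on the other strand were listed with bedtools 2.31.1, and the longest overlap, with protein-coding genes first, defined the opposite gene. Copies were found with blastn 2.17.0. Sequences came from GRCm38 and, for promoters, from RefSeq (GRCm38.p6).

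VLX-1005 was compared with vehicle by edgeR 4.0.16 quasi-likelihood fits under R 4.3.3 (TMM factors, filterByExpr, robust, no covariate, two-sided), with Benjamini-Hochberg adjustment over 4218 tested rows and a threshold of 0.05. Log2 CPM used a prior count of 2. SE is the size of the log2 fold change divided by the square root of F. Single values were compared with two-sided exact permutation tests over 35 splits (scipy 1.17.1). DESeq2 1.42.0, other scalings, filters, a replicate block, the ribosomal RNA share as a covariate and omission of each library were tried. Replicate numbers did not pair the samples.

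The members and gene lists were chosen with earlier results of these data known. The rule named the pair, the 10 rows with most counts, ferritin rows with at least 10 counts, up to 4 rows of each list by smallest p and the 5 rows most like Gm10252. Ruvbl2, Bax, Gys1, Ncoa4, Pcbp2, Map3k12, Csf1r, Hmgxb3, other marker genes, the low rows of list genes and the ferritin rows under 10 counts were named after their values were seen.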

Additional observations from a re-analysis of the deposited data

Results flagged for a closer look

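In the vehicle group, 23 values were checked for a library that stood apart from the other 3, and 2 were picked out. Chance picks out about 1 in 20 groups. Gm29587, one of the rows most like Gm10252, had 19, 21, 26 and 21 counts, and vehicle replicate 3 lay above the others by 0.924 of the range of the TMM-scaled CPM. The share of counts on ribosomal RNA was 2.04%, 1.69%, 2.11% and 2.05%, and vehicle replicate 2 lay below the others by 0.831 of the range. Neither Gm10252 nor Ftl1 was picked out.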

How the results depend on the processing

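Gm10252 was lower with VLX-1005 under all 16 other settings of the fit and called under none of them. Rows called over the table were 199 with DESeq2, 263 with no filter, 164 with a filter at 1 CPM in 3 libraries, 19 with the replicate block and 0 with the ribosomal RNA share as a covariate in edgeR (260 at an unadjusted p below 0.05), against 100. Omission of 1 library gave 14, 23, 16 and 18 without vehicle replicates 1 to 4, and 104, 29 and 203 without VLX-1005 replicates 1 to 3. Of the iron handling rows, 1, A230020J21Rik, was called with no filter and without VLX-1005 replicate 3, and omission of any other library called 0. CT010467.1 was also called with no filter. With the ribosomal RNA covariate, the log2 fold change of A230020J21Rik changed sign (-0.056). That of CT010467.1 (-0.028) was set near 0 in advance, because this row makes up nearly all of the covariate. The Gm10252 share differed by -0.471 points without the other 9 large rows, and by -0.373 to -0.212 without single libraries. Ftl1 per 10000 Gm10252 counts differed by -0.388 to 0.235 without single libraries. Of the 5 most similar rows, 3 stayed with total scaling and 0 with Spearman's rank correlation. The cause of these moves was not tested. Same-numbered libraries did not deviate together (correlations -0.03, -0.02 and 0.09), and the replicate block left Gm10252 at -0.19 ± 0.12 on the log2 scale (adjusted p = 0.526 by edgeR). Other scalings moved the median of all tested rows by at most 0.05. Low counts limit Ftl1 and Fth1, and the unknown strand setting limits what Gm10252 and the other rows stand for.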
